A study of Mus musculus with 12 samples.

Results

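The genes described here are the transcriptional repressor Rest, the parts of the CoREST complex that it recruits, and 2 splicing factors of the Srrm family, measured in 5 normal mouse lungs and 7 mouse lung tumors by poly-A RNA sequencing. They were chosen by name: Rest, the CoREST scaffolds Rcor1, Rcor2 and Rcor3, the histone demethylase Kdm1a, the histone deacetylases Hdac1 and Hdac2, and the splicing factors Srrm3 and Srrm4. All 9 were found among the 30399 genes of the deposited table, and all 9 were among the 23674 genes tested. Per the title of the series, CRISPR/Cas9, which cuts DNA at chosen sites and leaves small insertions or deletions, was used without a virus to make the tumor model. The labels give each sample only as tumor or normal lung, with no strain, age, targeted gene, delivery method or time. As far as is known of the study, Rb1, Rbl1 and Trp53 were among the genes targeted, and mice that lose such genes serve as models of small cell lung carcinoma, a neuroendocrine tumor. Titles of the tumors hold a number that tumors 3 and 4 share and that tumors 5, 6 and 7 share, so there are 4 distinct numbers, and the titles of tumors 1 and 7 hold a word for trachea. Whether a number marks 1 animal is not said, and p-values here measure the spread between these samples only.

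REST is a zinc-finger protein that binds a DNA element called RE1 and keeps neuronal genes silent in cells that are not neurons. It acts through partner proteins. One end of REST binds the CoREST scaffold proteins made by Rcor1, Rcor2 and Rcor3, which carry KDM1A (also called LSD1), an enzyme that removes methyl groups from histone H3, and the deacetylases HDAC1 and HDAC2. SRRM4 and its relative SRRM3 promote the inclusion of very short exons in neural and endocrine cells. SRRM4 also drives inclusion of an exon in the Rest transcript that leads to a truncated protein, and REST in turn represses Srrm4. Pulmonary neuroendocrine cells and small cell lung carcinomas express many neuronal genes. Gene-level counts do not show which Rest exons are used.

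Rest was lower and the other 8 genes were higher in tumors than in normal lung (limma on log2(value + 1), with Benjamini-Hochberg adjustment over all genes tested). Srrm3, Srrm4 and Rcor2 had the 3 largest increases, with log2 fold changes of 9.80, 8.72 and 5.27, Rest had -3.17, and Rcor1, Rcor3, Kdm1a, Hdac1 and Hdac2 lay between 0.43 and 1.22. A gene was called at an adjusted p under 0.05, and 9 of the 9 genes were called against 61.5% of all genes tested (31.4% higher in tumors, 30.1% lower). The median log2 fold change was 1.19 over the 9 genes and 0.04 over all genes tested. The groups did not overlap in 7 of the 9 genes, against 38.4% of all genes tested. The 7 tumors all lay above the 5 normal lungs in 6 genes, against 20.1%, and all below them in 1, against 18.4%. Call counts and non-overlap therefore say little about single genes here, and the sizes of the changes carry more of the description.

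**Figure D1:**
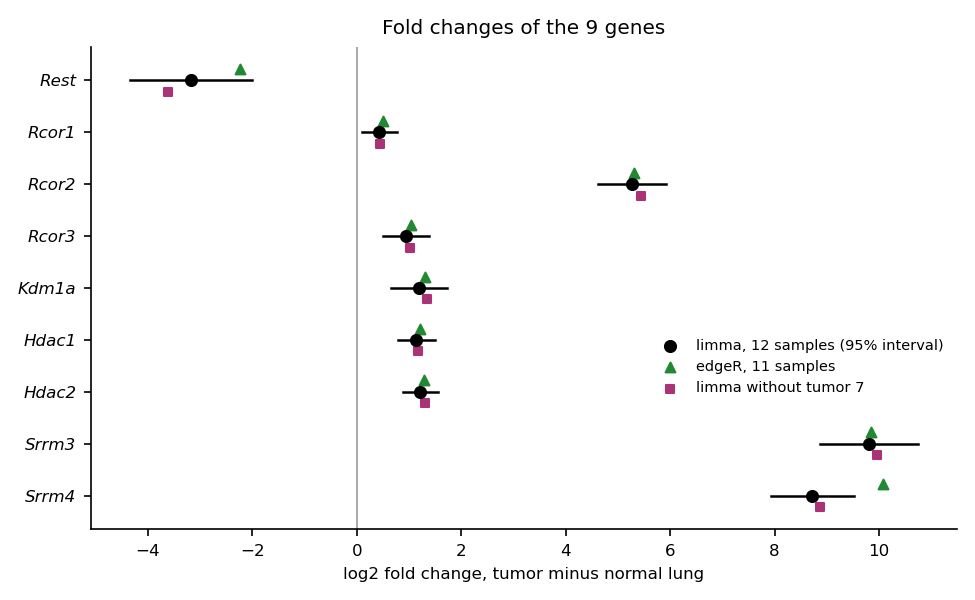
Log2 fold change (tumor minus normal lung, log2(value + 1) scale) of each of the 9 genes, with its 95% confidence interval from limma (circles and lines), the edgeR value over 11 samples (triangles) and the limma value without tumor 7 (squares). Rest lies below 0, Srrm3 and Srrm4 lie at 9.80 and 8.72, Rcor2 at 5.27, and the other 5 genes between 0.43 and 1.22.

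Values are normalized read counts, that is, reads assigned to a gene divided by a factor for the sample's depth. They can be compared between samples for 1 gene, and between genes only after division by exon length. Between 11126432 and 17032234 reads were assigned to genes in normal lungs and between 13093843 and 24217633 in tumors. A count of 3 reads, below which a value is not told from 0, amounts to at most 4.85 normalized counts in a normal lung and 3.57 in a tumor, and this floor covers counting error only. Summed neuroendocrine markers were at 331 to 471 normalized counts in normal lungs and at 42915 to 152908 in tumors, with 11 of 11 genes higher. Summed lung epithelium markers were at 355361 to 580334 in normal lungs and at 800 to 4228 in tumors, with 13 of 13 genes lower. Rb1 (log2 fold change 1.43, counts uncertain because Rcbtb2 overlaps it) and Rbl1 (1.63) were higher in tumors and Trp53 (0.38) was not called, and gene-level counts cannot show small insertions or deletions. In these bulk samples, fewer cells of a type and less RNA per cell cannot be told apart.

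Rest (ENSMUSG00000029249) reached normalized counts of 1058, 933, 1061, 653 and 806 in the 5 normal lungs, in order of their number. In tumors 1 to 7 it had 59.5, 83.4, 31.7, 77.2, 79.3, 143 and 620. The first 6 tumors lay far below every normal lung, and tumor 7 lay just under the lowest of them, so the groups did not overlap. The mean was 902 ± 174 for the normal lungs (SD, n = 5) and 156 ± 207 for the tumors (SD, n = 7), and limma put the log2 fold change at -3.17 (SE 0.54, adjusted p = 2.13e-04). Of all genes tested, 7.95% had a lower log2 fold change.

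Much of the spread of Rest among tumors came from tumor 7. Without it, the tumors averaged 79.0 ± 36.6 normalized counts (SD, n = 6), limma put the log2 fold change at -3.61 (SE 0.31, adjusted p = 5.69e-07), and the normal lung mean was 11.4 times the tumor mean, against 5.77 times with it. Count models returned smaller changes over 11 samples. These were -2.24 in edgeR (adjusted p = 0.00668) and -2.33 in DESeq2, against -2.90 in limma on the same samples.

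Tumor 7 also differed from the other tumors in markers of other cells. Its 11 leukocyte markers summed to 16514 normalized counts, against 402 to 4753 in tumors 1 to 6 and between 86084 and 165755 in normal lungs. Of these markers, 10 of 11 were lower in tumors, and among those at 0 in some tumors were Cd3e in 3 and Cd8a and Ncr1 in 1 each. The leukocyte sums of normal lungs rest largely on Lyz2, at no less than 78689 in any normal lung and at 5613 in tumor 7. By mean log2 value of these markers tumor 7 stood at 9.14, near the normal lungs at 9.48 to 10.22. The next highest tumor, tumor 6, stood at 7.19. Cardiac muscle markers summed to 37925 in tumor 7, 453 to 2727 in tumors 1 to 6 and between 308 and 4028 in normal lungs, and 0 of 6 were called. Endothelial markers summed to 7094 in tumor 7, 2699 to 7530 over all tumors and 72738 to 88024 in normal lungs. Of them 10 of 10 were lower in tumors and none was at 0. The tumor sums rest partly on Vwf, at 1395 in tumor 7 and up to 6522 in another tumor. Each of the other endothelial markers was highest in tumor 7 among the tumors. By mean log2 value tumor 7 was also the highest tumor, at 8.89, against 12.28 to 12.53 in normal lungs. Neuroendocrine and proliferation markers were lowest in tumor 7 among the tumors, at 42915 and 22822. Markers of neurons and Schwann cells summed to 4728 to 9969 in tumors, against 267 to 401 in normal lungs, with 4 of the 7 tested higher and 1 lower. The part of these other cells in the Rest value of tumor 7 was not tested.

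**Figure D2:**
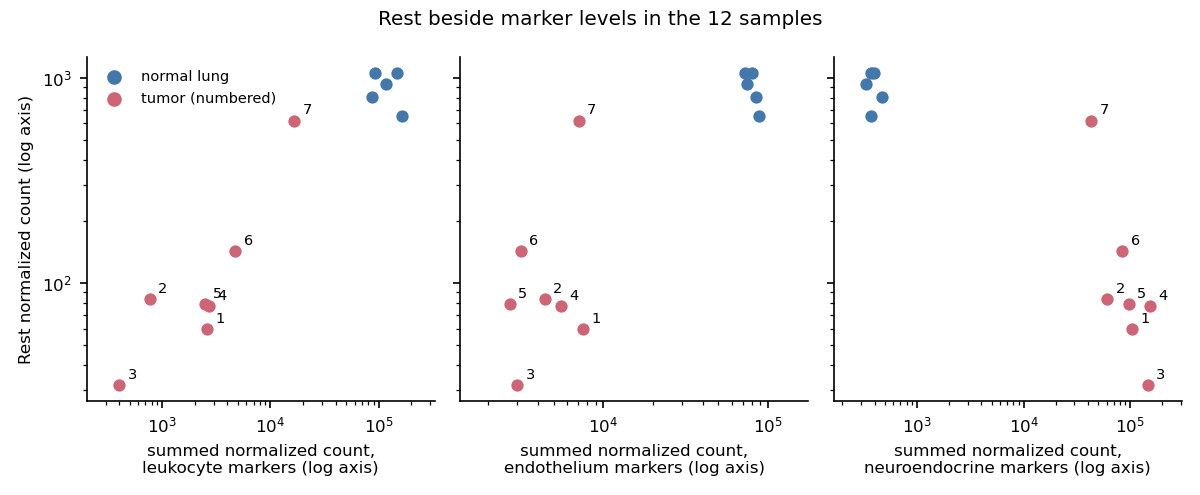
Rest (normalized counts, log axis) against the summed normalized counts (log axis) of leukocyte, endothelium and neuroendocrine markers, 1 point per sample, with normal lungs in blue and numbered tumors in red. Tumor 7 lies apart from the other tumors, at 620 for Rest and at 16514 for the leukocyte sum.

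The genes whose levels ran most like those of Rest over the 12 samples, by the root mean square difference of log2 values after each gene's own mean was subtracted, were Clec2g (0.25), Gja1 (0.27), Entpd1 (0.27), Gbp3 (0.30) and Tlr4 (0.31), out of 16517 genes compared. Gja1 makes the gap junction protein connexin 43, Entpd1 makes the cell surface enzyme CD39, and Tlr4 makes a receptor for bacterial lipopolysaccharide. All 5 shared the high value in tumor 7, with Gja1 at 1647 and Tlr4 at 525 normalized counts there. Since tumor 7 was among the samples used to pick them, this follows from the choice.

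The element through which REST acts can be shown in its target genes. The 21-base consensus TTCAGCACCNNGGACAGCGCC has 19 defined positions, and the best ungapped match on either strand was found in each of 32851 mouse promoters from RefSeq (GRCm38.p6), from 250 bases before to 50 after the start site. Promoters with at least 15 matches make up 0.228% of all of them. Of the 33 genes listed here as known REST targets, 22 had a promoter in the table, and 4 reached 15: Gria2 (17), Syn1 (17), Celsr3 (16) and Chrm4 (16). At least 17 matches were found in 0.0304% of promoters and at least 16 in 0.0731%. A match describes letters in this window, and it does not show that REST binds there.

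These 4 stretches are printed because they hold the closest matches among the targets, with the 21-base window in capitals and the gene's own strand read 5′ to 3′. They lie at chr3:80802939-80803059 (minus strand) for Gria2, chrX:20921080-20921168 (minus strand) for Syn1, chr9:108825868-108825988 (plus strand) for Celsr3 and chr2:91921939-91922045 (plus strand) for Chrm4. The windows start 174, 232, 127 and 214 bases before the start site, in that order. In Gria2 and Chrm4 the element reads on the opposite strand.
Gria2: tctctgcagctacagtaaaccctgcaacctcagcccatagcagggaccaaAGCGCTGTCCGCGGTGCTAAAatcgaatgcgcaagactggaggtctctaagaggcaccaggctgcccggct
Syn1: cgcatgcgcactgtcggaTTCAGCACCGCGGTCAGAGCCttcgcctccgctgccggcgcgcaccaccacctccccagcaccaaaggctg
Celsr3: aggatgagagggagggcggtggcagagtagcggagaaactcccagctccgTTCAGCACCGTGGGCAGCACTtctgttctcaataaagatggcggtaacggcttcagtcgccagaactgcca
Chrm4: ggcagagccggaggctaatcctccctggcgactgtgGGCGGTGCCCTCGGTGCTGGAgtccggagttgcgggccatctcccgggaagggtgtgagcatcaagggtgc

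All 4 of these genes were higher in tumors. Gria2, a subunit of AMPA-type glutamate receptors, averaged 4.89 ± 4.93 normalized counts over the normal lungs (SD, n = 5) and 3017 ± 1689 over the tumors (SD, n = 7), a log2 fold change of 9.31 (SE 0.54). Celsr3, a cadherin that guides axons, rose from 58.4 ± 11.8 to 7854 ± 2439 normalized counts. Chrm4, a muscarinic acetylcholine receptor, had no normal lung above the floor, and its tumor mean of 101 ± 41.2 was at least 20.8-fold higher than the highest floor. Syn1, a protein of synaptic vesicles, had a log2 fold change of 3.89. Reads of Syn1 are uncertain, since its span overlaps Araf on the other strand and use of the strand in counting is not given in the sources used here.

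Over the whole list of REST targets, 31 of 33 genes were tested, 27 were higher in tumors, 3 were lower and 1, Nppa, was not called, where 31.4% of all genes tested were higher and 30.1% lower. The median log2 fold change of the list was 5.01, against 0.04 over all genes tested. In 6 targets every normal lung was at or under the floor, and with those genes set to the lowest change the floor allows the median was 4.54. In 25 genes the tumors all lay above the normal lungs, against 20.1% of all genes tested, and in 2 all below, against 18.4%. Chga, which makes the granule protein chromogranin A, had the largest increase, from 5.57 ± 2.80 to 29551 ± 17029 normalized counts (log2 fold change 12.02). Besides Chga, the list shares Syp, Scg2 and Scg3 with the neuroendocrine markers, Snap25 with the neuronal markers and Nppa with the cardiac markers. Of the target genes, 12 overlap another listed gene and have uncertain counts.

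The 3 targets that fell were Bdnf, Stmn2 and Kcnn4. Bdnf, a growth factor for neurons, stood at 718, 847, 504, 1021 and 751 in normal lungs 1 to 5 and at 32.9, 9.5, 10.9, 22.5, 30.7, 18.2 and 88.4 in tumors 1 to 7 (normalized counts). Its groups were far apart, tumor 7 was the highest tumor, and limma put the log2 fold change at -4.93 (SE 0.46, adjusted p = 8.53e-07). Stmn2, a regulator of microtubules in growing axons, fell from 1197 ± 436 to 79.6 ± 70.3 normalized counts, a log2 fold change of -4.38. Kcnn4, a calcium-activated potassium channel, had -3.60 in limma, with overlapping groups, and was not called in edgeR (-1.40, adjusted p = 0.212).

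The 3 CoREST scaffold genes changed by unequal amounts. Rcor2 (ENSMUSG00000024968) was low in every normal lung, with normalized counts of 49.0, 34.4, 30.7, 29.6 and 24.1. In tumors 1 to 7 it had 1827, 943, 2264, 1467, 1090, 1604 and 626. The groups lay far apart, and tumor 7 was the lowest tumor. The means were 33.6 ± 9.38 (SD, n = 5) and 1403 ± 560 (SD, n = 7), a 41.8-fold difference of means and a log2 fold change of 5.27 (SE 0.30, limma adjusted p = 9.39e-09).

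Rcor1 (ENSMUSG00000037896), the best known of the scaffolds, was at 1328, 1133, 1286, 1110 and 1255 normalized counts in the normal lungs, and at 1521, 1272, 1897, 1329, 2297, 1929 and 1517 in the tumors. The groups overlapped through tumor 2. The log2 fold change of 0.43 (SE 0.16, limma adjusted p = 0.0291) was the smallest of the 9 genes, and it was no longer called with Y-linked expression as a covariate (0.34, adjusted p = 0.201) or with same-numbered tumors averaged (0.35, adjusted p = 0.0598). It was also lost when normal lung 2 (0.41), normal lung 4 (0.40), tumor 3 (0.40), tumor 5 (0.35) or tumor 6 (0.39) was left out. Y-linked genes were expressed in 4 of the normal lungs and 1 of the tumors.

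Rcor3 (ENSMUSG00000037395) gave normalized counts of 429, 407, 371, 281 and 371 in the normal lungs. The tumors gave 675, 544, 805, 604, 1180, 821 and 520. The groups did not overlap, and tumor 7 was again the lowest tumor. Its log2 fold change by limma was 0.94 (SE 0.21, adjusted p = 0.00151). Exons of Rcor3 overlap those of Gm10516 and Gm26879 on the other strand. Gm26879 was itself higher in tumors, with mean normalized counts of 7.17 and 36.6, against means of 372 ± 56.8 and 736 ± 229 for Rcor3.

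Per exon kilobase, the order of the scaffolds changed between the tissues. In normal lung Rcor1 stood highest at 215 ± 16.9 normalized counts per kilobase, then Rcor3 at 27.3 ± 4.17 and Rcor2 at 10.6 ± 2.97 (SD, n = 5). In tumors Rcor2 had 444 ± 177, Rcor1 296 ± 65.4 and Rcor3 54.0 ± 16.8 (SD, n = 7). Rcor2 was above Rcor1 in 5 of 7 tumors, tumors 5 and 7 being the exceptions, and in 0 of 5 normal lungs. The paralogs were also compared by within-sample log2 ratios of normalized counts that were not divided by exon length, so that the change between tissues can be read but not which gene is higher. The log2 ratio of Rcor2 to Rcor1 on that scale rose from -5.18 ± 0.34 to -0.34 ± 0.63, by 4.84 (exact two-sided permutation p = 0.00126, adjusted over 4 ratios 0.00505), the smallest p the 792 splits can give. For Rcor3 to Rcor1 it rose from -1.72 ± 0.19 to -1.21 ± 0.17, by 0.51 (exact permutation p = 0.00253, adjusted 0.00505). Tumor 7, at -1.54, lay within the normal lung values, whose highest was -1.47.

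The 250 bases before the Rcor2 start site lie at chr19:7267144-7267393 on the plus strand (RefSeq, GRCm38.p6). They are shown because Rcor2 alone of the 7 member promoters in the table holds the 7 bases GGACAGC. These are in capitals, 68 bases before the start site.
Rcor2: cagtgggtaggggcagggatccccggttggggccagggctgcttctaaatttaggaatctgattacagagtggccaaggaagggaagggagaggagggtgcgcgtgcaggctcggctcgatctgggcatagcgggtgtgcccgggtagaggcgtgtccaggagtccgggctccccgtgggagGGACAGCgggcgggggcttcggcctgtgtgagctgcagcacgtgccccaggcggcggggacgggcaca
That half-element, searched on both strands and contained in the RE1 consensus above, was found in 6.56% of all promoters. The best match of Rcor2 to the whole consensus was 11 of 19, which 79.8% of promoters reach. Promoters of Rest and Hdac1 were not in the table.

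The 3 enzymes of the complex rose by 1.14 to 1.22 on the log2 scale. Kdm1a (ENSMUSG00000036940) measured 638, 484, 473, 399 and 507 normalized counts in the normal lungs. The tumors measured 1440, 1930, 1398, 850, 1103, 1072 and 604. Only tumor 7 fell within the normal lung range, below normal lung 1. Its log2 fold change by limma was 1.19 (SE 0.25, adjusted p = 9.96e-04), and 1.34 without tumor 7. The span of Kdm1a overlaps Luzp1 on the other strand, though not in its exons.

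Hdac1 (ENSMUSG00000028800) gave normalized counts of 681, 441, 512, 473 and 775 in the normal lungs and 1428, 1055, 1123, 1335, 1402, 1295 and 1093 in the tumors, with no overlap (log2 fold change 1.14, SE 0.17, limma adjusted p = 5.45e-05). Hdac2 (ENSMUSG00000019777) gave 441, 540, 470, 540 and 490 in the normal lungs and 1156, 1157, 1326, 1018, 1392, 1325 and 803 in the tumors, also with no overlap (1.22, SE 0.15, limma adjusted p = 1.52e-05). Tumor 7 was the lowest tumor for Hdac2 but not for Hdac1, where tumor 2 was lower. The log2 ratio of Hdac2 to Hdac1 was -0.19 ± 0.45 for normal lungs and -0.11 ± 0.27 for tumors, and the difference, 0.08, missed the threshold (exact permutation p = 0.694). It ran from -0.040 to 0.20 when each sample was left out in turn. Per exon kilobase Hdac1 was above Hdac2 in all 12 samples. The margin was small in some, with a log2 ratio of Hdac2 to Hdac1 of -0.085 in normal lung 2 and -0.14 in tumor 3. This order depends on the exon lengths used.

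**Figure D3:**
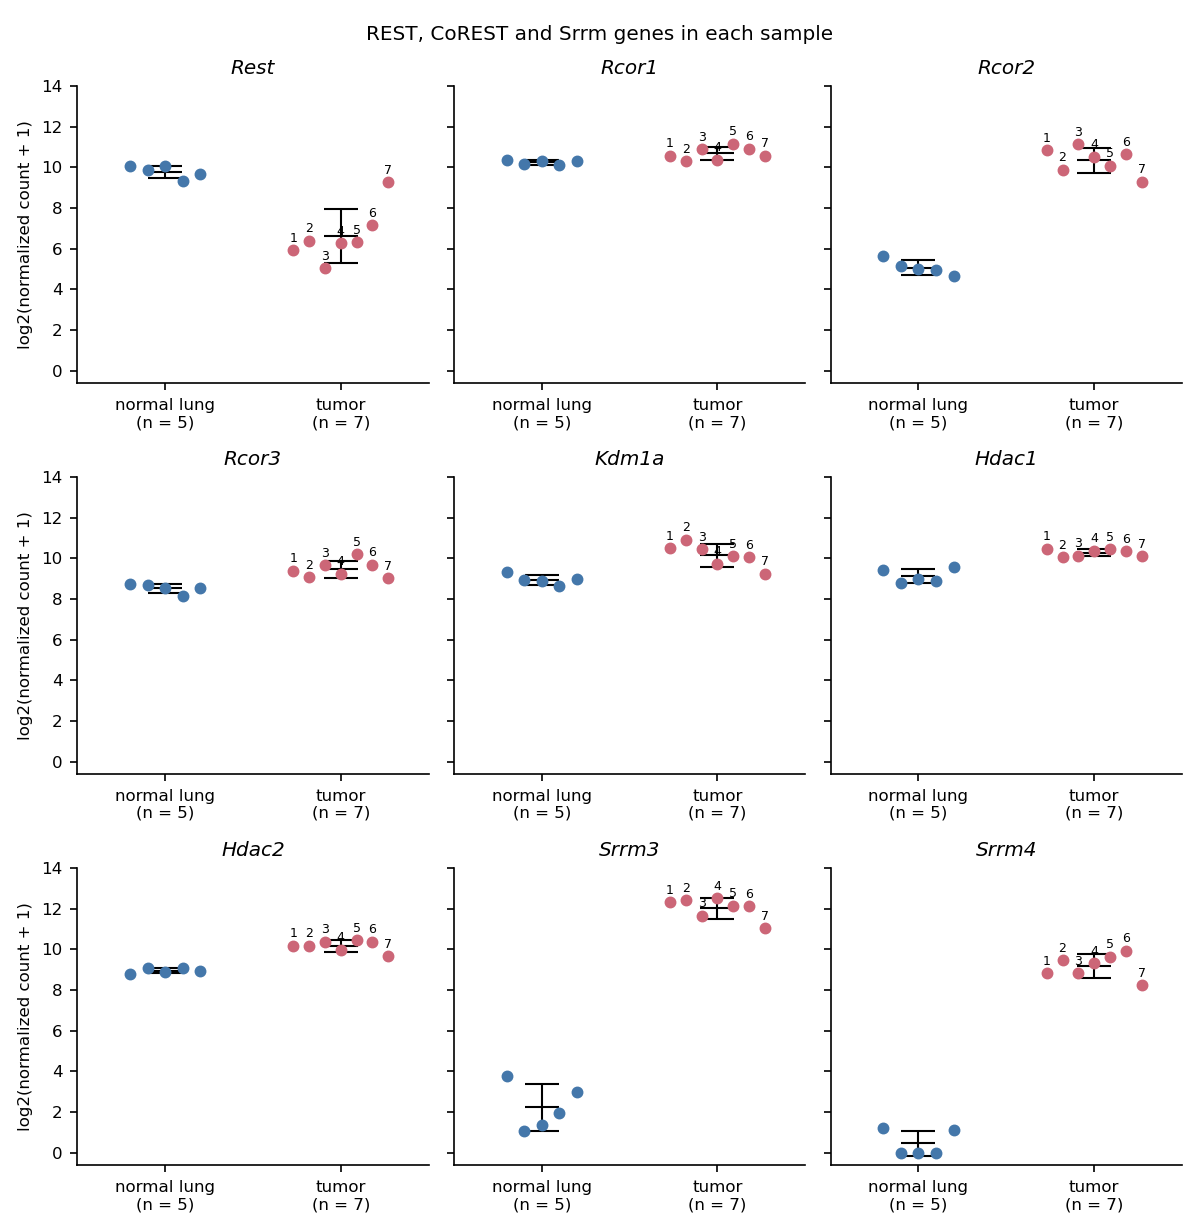
Levels of the 9 genes, as log2(normalized count + 1), in each of the 5 normal lungs and 7 numbered tumors, 1 point per sample, with the group mean and SD as black bars. Srrm3, Srrm4 and Rcor2 separate most, Rest runs the other way, and Rcor1 overlaps between the groups.

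Srrm3 and Srrm4 went from near absence in normal lung to clear expression in every tumor. Srrm3 (ENSMUSG00000039860) gave normalized counts of 12.9, 1.08, 1.62, 2.82 and 6.90 in the normal lungs, of which 3 are at or under the floor of 3 reads. In tumors 1 to 7 it had 5084, 5452, 3222, 5915, 4519, 4458 and 2109. The lowest tumor, tumor 7, was still far above the highest normal lung. Its log2 fold change by limma was 9.80 (SE 0.44, adjusted p = 1.31e-09), exceeded by 0.0972% of the genes tested.

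Srrm4 (ENSMUSG00000063919) had 1, 0, 0, 0 and 1 reads in normal lungs 1 to 5, all under the floor. In tumors 1 to 7 it had 452, 710, 456, 635, 794, 982 and 301 normalized counts. Tumor 7 was again the lowest tumor. Against the highest floor of a normal lung, the tumor mean of 619 ± 233 (SD, n = 7) was at least 128-fold higher, and the lowest tumor at least 62.1-fold. The log2 fold change of 8.72 (SE 0.37, limma adjusted p = 9.11e-10) depends on the pseudocount, with 11.01 at a pseudocount of 0.1. The exons of Srrm4os, on the other strand, overlap those of Srrm4, but Srrm4os had 0 normalized counts in normal lungs and 0 to 3.24 in tumors.

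Per exon kilobase, Srrm3 was the higher of the pair in tumors, at 686 ± 207 normalized counts against 71.3 ± 26.9 for Srrm4 (SD, n = 7). The log2 ratio of Srrm4 to Srrm3 differed by -1.08 between the groups (exact permutation p = 0.00505, adjusted 0.00673), but its normal lung values rest on counts at the floor, and with a pseudocount of 0.1 the sign turned (0.79, adjusted p = 0.0808). No direction is read from it.

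The bases before the start sites of Srrm3 (chr5:135817856-135818105, plus strand) and Srrm4 (chr5:116591818-116592067, minus strand), also from RefSeq, are shown because these genes had the largest increases of the 9.
Srrm3: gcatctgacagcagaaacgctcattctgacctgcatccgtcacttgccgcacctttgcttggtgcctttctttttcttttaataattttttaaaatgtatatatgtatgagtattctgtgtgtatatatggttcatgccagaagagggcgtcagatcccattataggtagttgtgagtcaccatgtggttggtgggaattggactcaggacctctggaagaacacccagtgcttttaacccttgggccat
Srrm4: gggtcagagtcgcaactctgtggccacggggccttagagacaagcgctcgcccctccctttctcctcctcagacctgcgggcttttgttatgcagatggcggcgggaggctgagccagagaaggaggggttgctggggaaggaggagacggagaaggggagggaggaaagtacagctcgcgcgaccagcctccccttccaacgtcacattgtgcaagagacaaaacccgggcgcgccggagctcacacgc
The first has a GC content of 43.6% and the second of 63.2%, against a median of 52.4% over all promoters and 67.6% for the Rcor2 stretch above. Neither holds GGACAGC, and their best matches to the RE1 consensus were 12 and 11 of 19. At least 12 matches were found in 36.4% of promoters.

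Genes with levels most like those of Srrm3 over the 12 samples were Ly6h (0.54), Myt1 (0.59), Srrm4 (0.70), Snap25 (0.71) and Adgrb1 (0.75), by the same measure as for Rest. For Srrm4 they were Cacng4 (0.45), Pak7 (0.46), Gm49353 (0.51), Snap25 (0.56) and Syt1 (0.58). Srrm3 itself ranked 24 for Srrm4. Snap25, a protein that fuses synaptic vesicles with the membrane, was on both lists. The measure favors genes with a rise of similar size, so the large rise of these genes in tumors follows from the choice. Myt1 is a neural transcription factor, and Syt1 is a calcium sensor of synaptic vesicles.

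**Figure D4:**
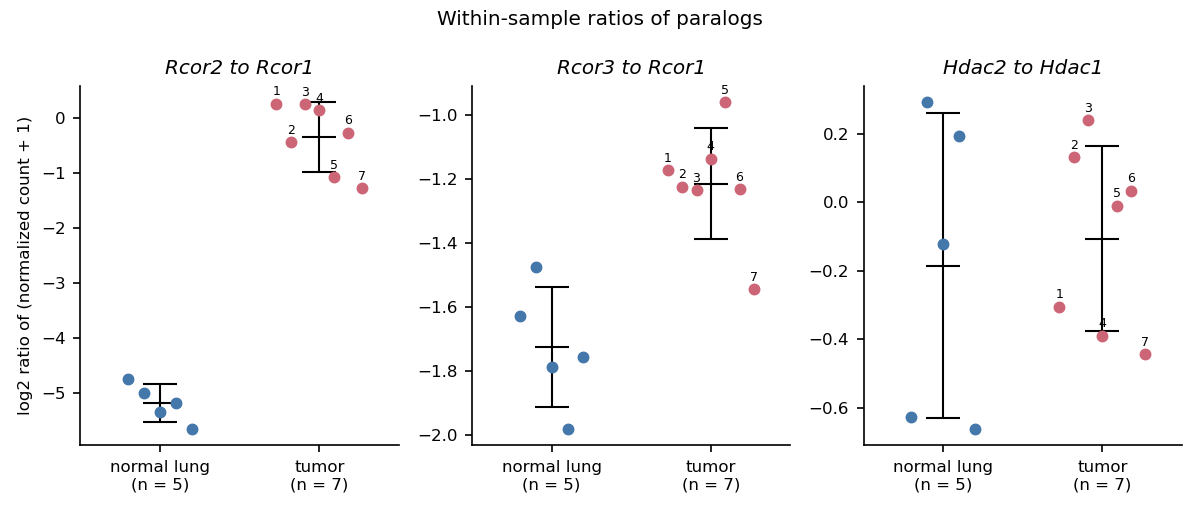
Within-sample log2 ratios of (normalized count + 1) of Rcor2 to Rcor1, Rcor3 to Rcor1 and Hdac2 to Hdac1, 1 point per sample with tumors numbered, and the group mean and SD as black bars. The Rcor2 to Rcor1 ratio moves from -5.18 in normal lung to -0.34 in tumors, while the Hdac2 to Hdac1 ratio overlaps.

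Other genes of the pathways were taken from lists of known partners. Among 23 of 24 partners and cofactors of REST and CoREST in the table, 14 were higher, 1 was lower and 8 were not called, against 31.4% higher and 30.1% lower over all genes tested. The median log2 fold change was 0.56, against 0.04 over all genes. Insm1, a neuroendocrine transcription factor that binds this complex, changed most, from 20.8 ± 9.42 to 12339 ± 6427 normalized counts (log2 fold change 9.08), and it is also one of the neuroendocrine markers. Ehmt2, a histone H3 methyltransferase, rose from 1714 ± 227 to 4166 ± 539 (1.28). Gfi1b, a repressor of blood cells, was the gene that fell, with mean normalized counts of 11.01 and 4.33, and was not called with DESeq2 or averaged tumors. It was too low to be tested with edgeR or at a mean of at least 10. With Y-linked expression as a covariate 9 partners were called higher.

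Of 24 genes of other complexes that hold class I deacetylases, 15 were higher, 2 were lower and 7 were not called, with a median of 0.55 (all genes tested: 31.4% higher, 30.1% lower, median 0.04). Sap30, a subunit of the Sin3 complex, rose from 211 ± 61.0 to 612 ± 237 normalized counts. Mbd2, which binds methylated DNA, fell by 1.11 on the log2 scale. Sap18 had -0.51, and its call was lost when all columns were scaled to equal totals or Y-linked expression was a covariate. It was also lost without the trachea-titled tumors, without normal lung 2 and without normal lung 4. Exons of Sap18 overlap those of Ska3 on the other strand, so its counts are uncertain.

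Among 18 regulators of neural splicing, 13 were higher, 3 were lower and 2, Srrm2 and Ptbp3, were not called, with a median of 1.29 (all genes tested: 31.4% higher, 30.1% lower, median 0.04). Celf5 (7.12) and Rbfox1 (6.03), RNA-binding proteins of neurons, rose most. Qk (-2.21), Mbnl1 (-1.57) and Mbnl2 (-0.43) fell, the last of them called no longer under equal totals. Srrm1, a relative of Srrm3 and Srrm4 found in most cells, had 0.92, and Ptbp1, a repressor of neural exons, had 0.77. Both values are far smaller than those of Srrm3 and Srrm4. Exons of Ptbp1 overlap those of Plppr3 and E130317F20Rik on the other strand, so its counts are uncertain.

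**Figure D5:**
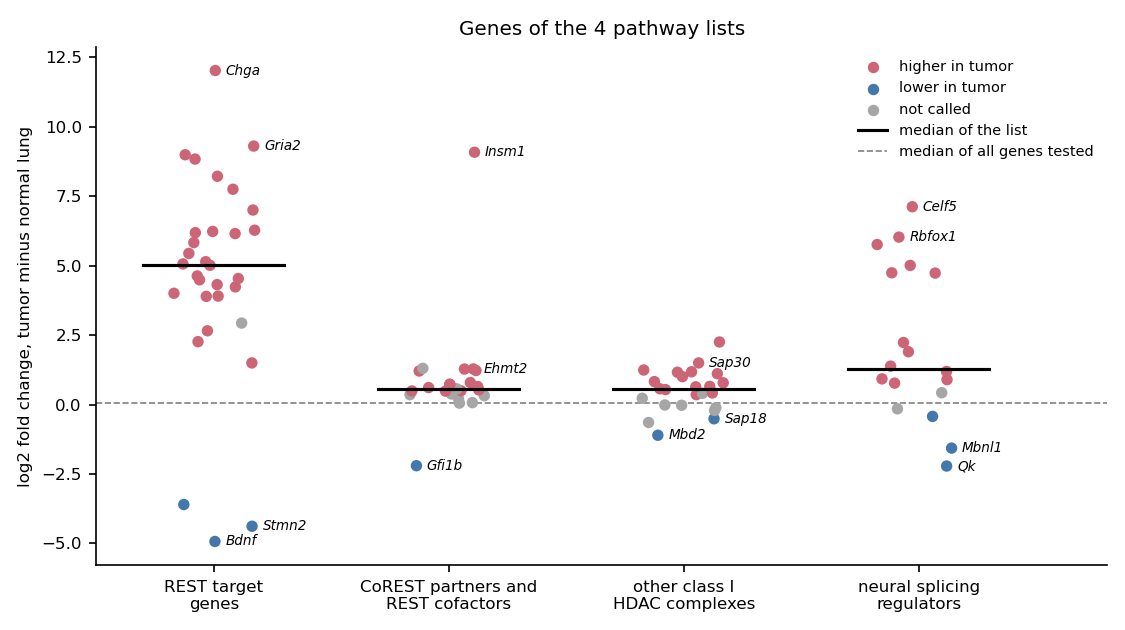
Log2 fold change (tumor minus normal lung) of each gene in the lists of REST targets, REST and CoREST partners, other class I deacetylase complexes and neural splicing regulators, 1 point per gene (red higher, blue lower, grey not called), with the list median as a line and the median of all genes tested dashed. The REST targets have a median of 5.01, with Bdnf and Stmn2 far below 0, and the other 3 lists have medians of 0.56, 0.55 and 1.29.

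Taking the 9 genes by tumor, tumor 7 was the highest tumor for Rest and the lowest for Rcor2, Rcor3, Kdm1a, Hdac2, Srrm3 and Srrm4. The same tumor had the lowest sum of REST targets, 48394 normalized counts against 68099 to 119796 in tumors 1 to 6. Normal lungs had 4282 to 5011. Abundant genes weigh most in this sum, and Chga alone had 11821 in tumor 7 and up to 58490 in other tumors. By mean log2 value over the 31 targets tumor 7 was not the lowest. It stood at 8.96, above tumors 1 (8.54), 2 (8.59) and 3 (8.91) and below tumors 4 (9.39), 5 (9.20) and 6 (9.43). Both the sum and the mean include Nppa, which is also a cardiac marker. Nppa had 7498 normalized counts in tumor 7 and at most 537 in the other tumors. Values without Nppa were not computed, so the close order of tumors 7 and 3 is not read as a difference in REST targets. Tumor 3 had the lowest Rest and the highest Rcor2 of the 7 tumors, but not the highest Srrm3 or Srrm4. It also had the lowest sums of leukocyte (402) and lung epithelium (800) markers among the tumors, and the part of these cells in its Rest value was not tested.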

How the data were processed

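The table deposited by the authors holds a signal per gene and sample: read counts divided by a size factor for depth, per the submitters' processing notes made with featureCounts and DESeq2 on GRCm39. The aligner, annotation and use of the strand are not given in the sources used here. Whole reads were recovered by dividing each column by its smallest step. The column of tumor 3 was kept out of the count tests, which used 11 samples. GENCODE release M21 gave symbols to 29982 of 30399 identifiers, and listed genes absent from the table were not analysed here. Exon length was that of all exons of a gene in this release, merged. It can differ from the length of the transcripts present, so orders of genes per exon kilobase are approximate.

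Groups follow the tissue label, and replicate numbers follow the listing order. Whole reads of the 25 same-group pairs all differed by more than sampling noise, with a chi-square of at least 18.4 per degree of freedom. Genes with a mean of at least 1 were tested with limma 3.58.1 (lmFit, then eBayes with a trend in the variance, R 4.3.3) on log2(value + 1), a scale that understates changes of low genes, with Benjamini-Hochberg adjustment over all genes. The foreseen test for raw counts was not the main one because the values are normalized. Ratios of 2 genes used exact two-sided permutation tests over 792 splits. Alternatives were edgeR 4.0.16 with TMM factors and DESeq2 1.42.0 on the recovered reads, equal totals, other filters, a pseudocount of 0.1, averaged tumors of one title number, a Y-linked covariate, and leaving out trachea-titled tumors or each sample. Counts of 22213 genes were simulated for 5 against 7 samples. In them limma recovered 59 of 100 genes changed by 1 log2 unit and 88 of 100 changed by 2. Of its 157 calls 10 (6.37%) were false. The simulation gave all genes in both groups the same dispersion and changed few genes, while 61.5% of genes were called in the data. Its rates therefore need not hold for these samples.

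Named genes are the 9 members, the 2 called genes with the largest change in each direction per list, those needed to make a count clear, and the 5 genes most like Rest, Srrm3 and Srrm4 in pattern; a few such genes are not reported here. The members and lists were chosen with earlier results of these data known. Gene spans of another listed gene overlap 3 of the 9 members. Figures used Python 3.11.15 and matplotlib 3.10.9.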

Additional observations from a re-analysis of the deposited data

How the results depend on the processing

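The 25 results were recomputed under 21 other settings where they applied. Of 501 values, 481 kept their direction and call (or, for counts, stayed within 1.5 times), 7 lost the call, 10 counts moved further and 3 changed sign. The members called higher numbered 7 or 8 and the member called lower was 1 under all settings run. The 7 lost calls are all of Rcor1 (main value 0.43): 0.34 with the Y-linked covariate, 0.35 with same-numbered tumors averaged, and 0.35 to 0.41 in 5 fits that left out 1 sample. Over all fits that left out 1 sample Rcor1 ran from 0.35 to 0.49. CoREST partners called higher fell from 14 to 9 with the Y-linked covariate. Partners called lower went from 1 to 0 with edgeR, DESeq2, a mean of at least 10 or averaged tumors, since Gfi1b was then not tested or not called. Genes of other deacetylase complexes called lower went from 2 to 1 with the Y-linked covariate, equal totals or without trachea-titled tumors, and were 1 to 2 over the fits that left out 1 sample. The Hdac2 to Hdac1 difference turned to -0.031 without normal lung 1 and -0.040 without normal lung 5, with a range of -0.040 to 0.20 over the fits that left out 1 sample. The Srrm4 to Srrm3 difference turned to 0.79 with a pseudocount of 0.1, where normal lung values lie at the floor. Apart from the pseudocount and the smaller samples, the cause was not tested. Equal totals moved the median log2 fold change of all genes from 0.04 to 0.24 and that of Rcor1 to 0.64. Over all genes, 5874 to 8617 were called higher and 4821 to 7574 lower. Depth limits Srrm3 and Srrm4 in normal lung, where most values are at or under 3 reads. No paired analysis was possible because the replicate numbers follow the listing order and no label number is shared between normal lungs and tumors.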
